A study of Macaca fascicularis with 2 samples.

Results

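Heat shock protein and DNAJ genes were examined in single cells of the nucleus pulposus (NP), the gelatinous core of the intervertebral disc, and the articular cartilage (AC) of cynomolgus monkeys. The genes were the rows of the expression matrix whose symbols begin with DNAJA, DNAJB, DNAJC, HSPA, HSPB, HSPD, HSPE, HSPH or HSP90. This rule gave 57 of 21371 rows, all with at least 1 read in a kept cell. Of the 57 members, 48 had a read in at least 5% of kept cells and entered the comparisons, which were run on all 11068 genes that met this limit.

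The animals were wild-type males aged 3 years, with NP and AC taken from one and AC from another. Tissue was digested at 37 °C with Liberase TM and DNase, for 3 h by the labels, and passed through a 70 μm strainer. The study's text gives AC a longer digestion than NP, so that tissue and digestion time cannot be told apart. Live cells carrying 1 of 4 surface tags (A951, A952, A953 and A954) were sorted and pooled into 1 TAS-seq library, a single-cell method with read counts. The title of the library lists 3 tissue samples, and no source pairs a tag with a tissue, so that tags are given by number only and tissue and tag cannot be told apart. With 1 library there were no replicates and no test was run. Intervals are exact 95% intervals for counting error only, and since PCR copies were counted as reads they are narrower than the error of molecules.

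Notochordal cells (NCs), the large cells that remain from the embryonic notochord, were those with at least 5 reads of *KRT19* and at least 5 reads of *TBXT*. They numbered 310 of 5653 kept cells. A952 held 236 NCs among 1125 cells (21.0%; Clopper-Pearson interval, 18.6 to 23.5%), A951 held 67 among 995 (6.73%; 5.26 to 8.47%), A953 held 5 among 1377 and A954 held 2 among 2156. Values within tags are therefore given for A951 and A952. The remaining 5343 cells are called other cells. Median depth was 186370 reads per NC and 199072 per other cell, with medians of 4061 and 3819 genes detected. The label of the NCs held for notochordal genes that the rule did not use. *NCAM1* was at 506 reads per 1000000 reads (rpm) against 25.2 rpm in other cells, *CDH2* at 120 against 1.16 rpm and *SHH* at 98.7 against 0.847 rpm. *NOTO* was near 0 in both groups, and *KRT8*, *KRT18* and *CD24* were not among the rows analysed here. Both groups carried chondrocyte RNA, and the 5 chondrocyte markers found of 6 listed summed to 17401 rpm in NCs and 37601 rpm in other cells. Among these, *COL2A1* was at 1269 against 20072 rpm, while *ACAN* was at 14440 against 3968 rpm.

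Heat shock proteins are chaperones, which keep other proteins folded. HSP70 proteins bind and release exposed stretches of a client in a cycle driven by ATP, J-proteins of the DNAJ family bring clients to HSP70 and start ATP hydrolysis, HSP110 proteins exchange the nucleotide, and HSP90 finishes folding of many kinases and receptors. Separate sets work in the endoplasmic reticulum and in mitochondria. Some cytosolic members are induced by heat shock factor 1 when unfolded protein builds up, whereas the endoplasmic reticulum set is induced by the unfolded protein response. In cartilage and disc the latter set serves the folding of secreted matrix. *JUN* and *FOS* are immediate early genes, which respond within minutes to stimuli that include mechanical and enzymatic handling of tissue.

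The summed level of the family differed by a small ratio between NCs and other cells over all tags and by more within A951, and its parts differed in opposite directions. The 57 members summed to 12131 rpm in NCs (12105 to 12158) and 10537 rpm in other cells (10531 to 10542), a log2 ratio of 0.20. The median log2 ratio was 0.05 over the 48 members tested and 0.27 over all genes tested, so that ratios here are read against 0.27 rather than 0. Centred on that median, the log2 ratio of the sum was -0.07, and without A951 or A952 it was 0.12 or 0.34. Within A951 the sum was at 14480 against 9929 rpm, a log2 ratio of 0.54 where the median of all genes was 0.16. Within A952 it was at 11753 against 10006 rpm, a log2 ratio of 0.23 where the median of all genes was 0.26. Of the 48 members, 10 were at least 2-fold higher in NCs, against 23.3% of all genes tested, and 2 were at least 2-fold lower (5 without A952), against 12.3%. Centred on the median of all genes, 5 were at least 2-fold higher and 5 lower, against 17.2 and 16.2% of all genes. At a limit of 1.5-fold, 14 members were higher, against 36.7% of all genes, and 11 were lower, against 19.1%. The shares of members past the 2-fold limit were thus no larger than in all genes in either direction.

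**Figure D1:**
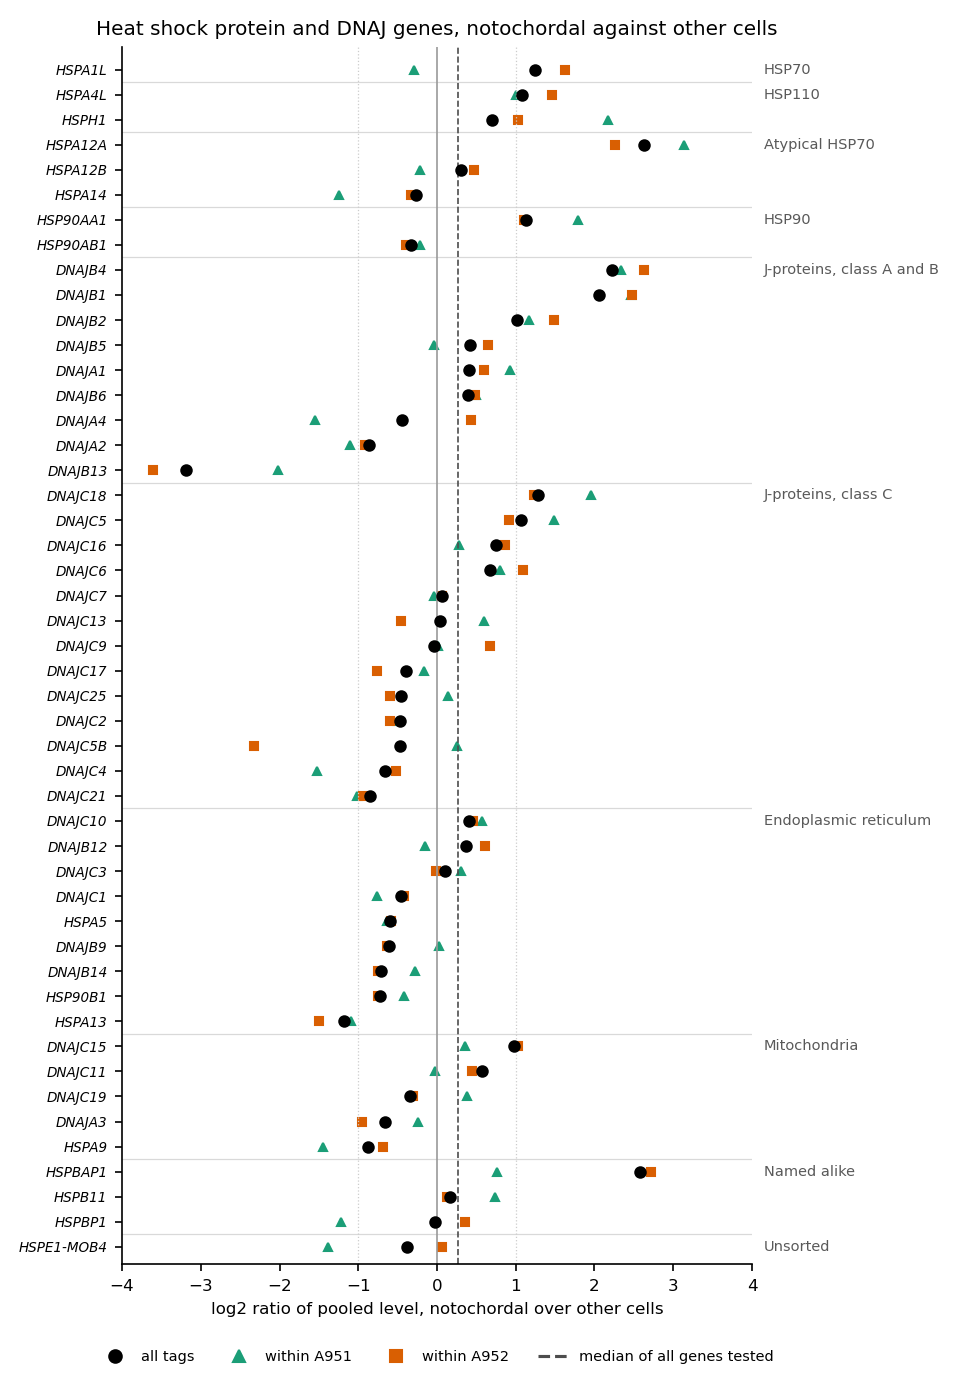
The log2 ratio of the pooled level in NCs over that in other cells is plotted on the x axis for the 48 members tested, arranged by role on the y axis. Black circles are all tags, triangles are cells of A951, squares are cells of A952, the dashed line is the median of all genes tested (0.27) and the dotted lines mark 2-fold. *DNAJB4*, *DNAJB1*, *HSP90AA1*, *HSPA12A*, *DNAJB2*, *HSPA4L* and *DNAJC18* lie to the right of the 2-fold line in all 3 comparisons. For the last 4 the share of other cells with a read is within the background. Most endoplasmic reticulum genes lie to the left of the dashed line.

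The summed level of the known heat shock factor targets found was higher in NCs. Of 12 listed genes, 5 were among the rows analysed here (*HSPH1*, *HSP90AA1*, *DNAJB1*, *DNAJA1* and *DNAJB4*). They summed to 6436 rpm in NCs (6416 to 6455) and 2924 rpm in other cells (2921 to 2927), a log2 ratio of 1.14. All 5 had ratios above 0.27, the median of all genes, with a median of 1.14, and 3 passed 2-fold, against 23.3% of all genes. Centred on that median, the log2 ratio of the group was 0.87. Only *DNAJB1* and *DNAJB4* then passed 2-fold, against 17.2% of all genes, with *HSP90AA1* at 0.87. In A951 the group was at 8507 rpm in NCs and 2353 rpm in other cells, and in A952 at 6166 and 2573 rpm, so that NCs were above other cells within both tags (log2 ratios of 1.85 and 1.26). The other 52 members summed to 5696 rpm in NCs and 7612 rpm in other cells (log2 ratio of -0.42), and this sum was lower in NCs of both tags. Those with most reads were *HSP90AB1*, *HSP90B1*, *HSPA5* and *HSPA9*, all lower in NCs. Of the 43 tested, 16 had ratios above the median of all genes and 27 below, and their median was -0.03, with -0.04 within A951 and 0.07 within A952.

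*DNAJB1*, the J-protein that directs cytosolic HSP70 to misfolded and aggregated clients, had a pooled level of 1122 rpm in NCs (1114 to 1131) and 270 rpm in other cells (269 to 271). By tag it was at 1134 rpm in NCs of A951 and 1170 rpm in NCs of A952, against 205, 211, 185 and 363 rpm in other cells of A951 to A954. The NC values lay above those of the other cells of every tag. For this gene and those below, the share of all genes tested without such overlap was not counted. Under the weaker condition of a log2 ratio above 0 within both A951 and A952 it was 45.3%, and 28.7% were below 0 in both. The log2 ratio of *DNAJB1* was 2.05 over all tags, and 2.47 and 2.47 within A951 and A952. The median cell had 218 rpm among NCs and 14.1 rpm among other cells, although a read was found in similar shares of cells (87.4 and 81.1%; 77.9 and 58.2% after each cell was thinned to 50000 reads). *DNAJB4*, a related cytosolic J-protein, was at 261 rpm in NCs and 55.8 rpm in other cells, 4.68-fold apart. Its values were 236 and 273 rpm in NCs of A951 and A952 and 46.7, 44.2, 52.4 and 64.7 rpm in other cells of A951 to A954, with no overlap. A read of *DNAJB4* was found in 69.4% of NCs and 40.3% of other cells, and in 58.9 and 27.4% of thinned cells.

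*HSP90AA1*, the stress-inducible cytosolic HSP90, was at 3653 rpm in NCs and 1662 rpm in other cells, a log2 ratio of 1.14. Centred on the median of all genes, the ratio of *HSP90AA1* was 0.87, below 2-fold. It was at 4994 and 3455 rpm in NCs of A951 and A952, and at 1446, 1606, 1347 and 1941 rpm in other cells of A951 to A954, so that the groups did not overlap. Its constitutive counterpart *HSP90AB1* was lower in NCs than in other cells, at 1205 against 1511 rpm. *HSP90AB1* was also close to even over the tags in other cells, from 1421 rpm in A953 to 1555 rpm in A954. The paralogous HSP90 genes thus had log2 ratios of 1.14 and -0.33.

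*HSPH1*, the inducible HSP110 that acts as nucleotide exchange factor for HSP70, was at 861 rpm in NCs and 532 rpm in other cells, a log2 ratio of 0.69. Within tags the difference was larger, with 1548 against 343 rpm in A951 and 735 against 360 rpm in A952 (log2 ratios of 2.17 and 1.03). Other cells were at 324 rpm in A953 and at 776 rpm in A954, so that NCs of A952 lay below the other cells of A954. A read was found in 83.2% of NCs and 86.7% of other cells. *HSPA4L*, the other HSP110 gene found, was at 35.6 against 16.9 rpm, and *HSPA4* was not among the rows analysed here. *DNAJA1*, a class A J-protein and the farnesylated partner of HSP70, was at 538 rpm in NCs and 404 rpm in other cells. By tag *DNAJA1* was at 596 and 533 rpm in NCs of A951 and A952 and at 313, 353, 350 and 485 rpm in other cells of A951 to A954, with no overlap between the groups.

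**Figure D2:**
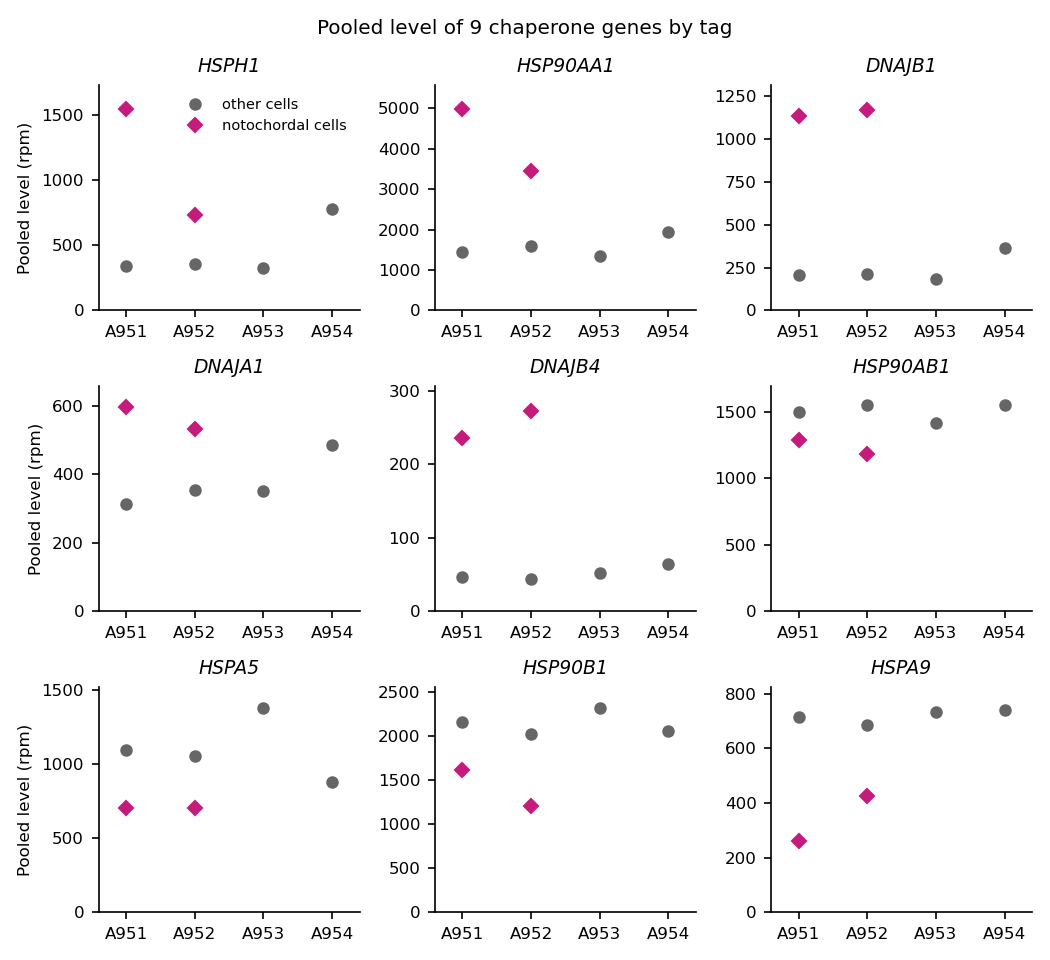
The pooled level in rpm (y axis, from 0) is plotted by tag (x axis) for 9 members, with grey circles for other cells and diamonds for NCs of A951 and A952, the tags with at least 50 NCs. For *HSP90AA1*, *DNAJB1*, *DNAJA1* and *DNAJB4* both NC values lie above every value of other cells, and for *HSPA5*, *HSP90B1*, *HSPA9* and *HSP90AB1* both lie below. The share of all genes tested that do so was not counted. Other cells of A954 stand apart for *HSPH1* (776 rpm).

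Of the canonical cytosolic HSP70 genes, only *HSPA1L* was among the rows analysed here, and *HSPA1A*, *HSPA1B*, *HSPA2*, *HSPA6* and *HSPA8* were not. *HSPA1L*, a constitutive HSP70 best known from testis, was at 8.05 rpm in NCs and 3.41 rpm in other cells, and at 2.62 against 3.21 rpm within A951. Its coding sequence is close to that of *HSPA1A* and *HSPA1B* and 3 other gene records overlap it in the RefSeq annotation, so that its reads are uncertain. Among the atypical HSP70 genes, which lack the usual peptide-binding part, *HSPA12A* was at 36.8 rpm in NCs and 5.97 rpm in other cells, a log2 ratio of 2.62. It was at 68.3 and 31.1 rpm in NCs of A951 and A952 and between 4.12 and 7.75 rpm in other cells of the tags. *HSPA14*, a ribosome-bound HSP70, was at 71.9 against 86.8 rpm, and *HSPA12B*, an endothelial HSP70, at 5.22 against 4.23 rpm.

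The share of cells with a read has a background, since genes that chondrocytes should lack were found in other cells too. *VWF* had a read in 23.0% of other cells, *PTPRC* in 10.4% and *PECAM1* in 6.78%. Shares at or below these are read as within the background, which concerns the share of cells and not the pooled level. *VWF* was at 1.32 rpm in other cells, against 20.0 rpm for *DNAJC18* and 3.14 rpm for *DNAJB2*. Such shares were found for 6 of the 10 members past 2-fold in the higher direction. In other cells they were 6.21% for *HSPA1L*, 5.56% for *DNAJB2*, 7.47% for *HSPBAP1*, 18.4% for *DNAJC18*, 19.7% for *HSPA4L* and 22.9% for *HSPA12A*. The median cell had 0 rpm of *HSPA12A* in both groups, and the 1% of other cells with most reads held 62.4% of its reads there.

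The cytosolic J-proteins of classes A and B were not alike. Beside *DNAJB1*, *DNAJB4* and *DNAJA1*, *DNAJB6*, a suppressor of protein aggregation, was at 379 against 289 rpm. *DNAJA2*, the constitutive class A J-protein, was lower in NCs, at 66.6 against 121 rpm, and lower within A951 (59.2 against 127 rpm) and A952 (66.5 against 125 rpm). *DNAJA4* was at 38.8 against 53.1 rpm over all tags, with log2 ratios of -1.55 in A951 and 0.44 in A952. *DNAJB2*, a J-protein best known from neurons, was at 6.34 against 3.14 rpm. *DNAJB13*, a protein of sperm and cilia, was at 0.484 against 4.42 rpm and had a read in 4.52% of NCs and 5.90% of other cells, both within the background.

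The 17 class C J-proteins not placed in an organelle had a median log2 ratio of -0.03 over the 13 tested. Of these 13, 2 were at least 2-fold higher and none lower, against 23.3 and 12.3% of all genes. Those past 2-fold were *DNAJC18* at 48.7 against 20.0 rpm and *DNAJC5*, the cysteine string protein of secretory vesicles, at 23.7 against 11.3 rpm. *DNAJC21*, which acts in ribosome maturation, was at 95.6 rpm in NCs and 172 rpm in other cells, and was lower in NCs of both tags (85.9 and 90.2 rpm, against 174 and 173 rpm). *DNAJC2*, a ribosome-associated J-protein, was at 77.3 against 107 rpm. *DNAJC25* was at 42.5 against 58.2 rpm, and *DNAJC7*, a cochaperone of HSP70 and HSP90, at 64.3 against 61.7 rpm.

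The chaperones of the endoplasmic reticulum summed to a lower level in NCs. The 9 genes found of 10 listed summed to 2646 rpm in NCs (2634 to 2658) and 3928 rpm in other cells (3925 to 3932), with a log2 ratio of -0.57. Of the 9, 7 had ratios below the median of all genes (6 below 0), the median was -0.60, and 1 was at least 2-fold lower, against 12.3% of all genes. *HSP90B1* (GRP94), the HSP90 of this organelle, was at 1290 against 2137 rpm, with 1616 against 2164 rpm in A951 and 1206 against 2030 rpm in A952. *HSPA5* (BiP), its HSP70, was at 705 against 1065 rpm, with 704 against 1091 rpm in A951 and 706 against 1054 rpm in A952. Both were lower in NCs than in the other cells of every tag. *HSPA13*, an HSP70 of the microsomes, was at 48.6 against 110 rpm. Over all tags and without centring, it was the only tested member besides *DNAJB13* past 2-fold in the lower direction. Centred on the median of all genes, *DNAJA2*, *DNAJC21* and *HSPA9* passed this limit as well. *DNAJC3* (p58IPK) was at 247 against 231 rpm, a sign that turns to lower once centred on the median of all genes, and *DNAJC10* (ERdj5), a reductase that assists degradation, was higher at 145 against 109 rpm. *DNAJB11* was not among the rows analysed here.

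Of the mitochondrial chaperones, 5 of 8 listed were found, without the chaperonin genes *HSPD1* and *HSPE1*. They summed to 610 rpm in NCs and 923 rpm in other cells. *HSPA9* (mortalin), the HSP70 of the matrix, was at 396 against 727 rpm and was lower in NCs of both tags (262 against 715 rpm in A951, 427 against 687 rpm in A952). *DNAJA3*, its J-protein, was at 26.8 against 42.6 rpm. *DNAJC19*, a part of the import motor, was at 68.2 against 86.3 rpm. *DNAJC15*, its paralogue, was at 81.6 against 41.3 rpm, and was higher within A951 (52.9 against 41.4 rpm) and A952 (91.2 against 44.5 rpm).

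Of the small heat shock proteins, which hold unfolded clients without ATP, the HSPB-named genes found were scarcely read, whereas *CRYAB* of the same family had a read in 307 of 310 NCs and 90.9% of other cells. *HSPB7*, *HSPB8* and *HSPB3* were the 3 found of 7 listed, and none reached 5% of cells. They summed to 1.01 rpm in NCs and 5.27 rpm in other cells, and *HSPB1* was not among the rows analysed here. Among genes that share the prefix and are not heat shock chaperones, *HSPBAP1* was at 16.0 against 2.69 rpm, *HSPB11* (IFT25), a part of the cilium, at 30.7 against 27.2 rpm and *HSPBP1*, a nucleotide exchange factor of HSP70, at a log2 ratio near 0. The readthrough gene *HSPE1-MOB4* was at 63.4 against 82.4 rpm, and reads of *DNAJB7* were found in under 1% of cells. The remaining members without a test were *DNAJB8*, *DNAJC12*, *DNAJC22*, *DNAJC27* and *DNAJC28*.

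Within A951, 9 members were at least 2-fold higher in NCs, against 25.0% of all genes, and 10 were at least 2-fold lower, against 20.1%. Within A952, 12 were higher, against 23.8%, and 3 lower, against 13.8%. Both tags had 8 members higher in common (*DNAJB4*, *DNAJB2*, *HSPH1*, *DNAJB1*, *HSPA4L*, *DNAJC18*, *HSP90AA1* and *HSPA12A*), against 15.2% of all genes, and 2 lower (*DNAJB13* and *HSPA13*), against 9.73%. Shares of members were again close to or below those of all genes. Among the 8, *DNAJB2*, *HSPA4L*, *DNAJC18* and *HSPA12A* had shares of other cells within the background.

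Genes that act with the chaperones were past 2-fold about as often as all genes in the higher direction. Of 22 listed, 19 were found and 18 tested, of which 4 were at least 2-fold higher in NCs and 1 lower, against 23.3 and 12.3% of all genes, with a median log2 ratio of 0.13. *CRYAB*, a small heat shock protein of the alpha-crystallin type, was at 1780 rpm in NCs and 384 rpm in other cells. *BAG5*, an HSP70 nucleotide exchange factor, was at 782 against 141 rpm and *SUGT1*, an HSP90 cochaperone, at 166 against 79.5 rpm. *HSF2*, a heat shock factor, was at 21.8 against 6.31 rpm. It had a read in 18.7% of NCs and 10.4% of other cells, shares within the background. *FKBP4*, an HSP90 cochaperone of steroid receptors, was at 21.5 against 54.5 rpm. The cochaperones *CHORDC1* (118 against 188 rpm) and *AHSA1* (75.5 against 103 rpm) were lower in NCs over all tags, as was *SERPINH1* (425 against 817 rpm). Within A951 *CHORDC1* (188 against 141 rpm) and *AHSA1* (138 against 75.3 rpm) were higher in NCs. Within A952 they were lower, at 98.4 against 143 rpm and 62.7 against 74.1 rpm. *STIP1* was at 124 rpm in both groups over all tags, at 190 against 105 rpm within A951 and at 111 against 107 rpm within A952. *BAG3* was at 371 against 337 rpm. *HSF1* itself was at 66.7 against 53.6 rpm.

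The unfolded protein response list had a median log2 ratio of -0.33. Of 18 listed, 17 were found and 16 tested, with 1 at least 2-fold higher and 4 lower, against 23.3 and 12.3% of all genes. The 4 lower genes were *HYOU1*, an HSP110 of the endoplasmic reticulum (12.1 against 53.5 rpm), *HERPUD1* (208 against 454 rpm), *MANF* (98.8 against 203 rpm) and the sensor *ERN1* (9.31 against 19.8 rpm). *DDIT3* (CHOP), a transcription factor of prolonged stress, was at 209 against 88.5 rpm. *CALR*, a lectin chaperone, was at 706 against 422 rpm.

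Of the immediate early genes, *JUN* and *FOS* were higher in NCs, as were most others tested. Of 23 listed, 17 were found and 16 tested, of which 9 were at least 2-fold higher and 1 lower, against 23.3 and 12.3% of all genes. The median log2 ratio was 1.36, and 12 of the 16 lay above the median of all genes. *JUN* was at 3104 rpm in NCs and 520 rpm in other cells, with 4347 against 507 rpm in A951 and 2931 against 630 rpm in A952. *FOS* was at 2237 against 551 rpm, with 2873 against 474 rpm in A951 and 2160 against 574 rpm in A952. Both were higher in NCs of these tags than in the other cells of any tag. The others past 2-fold were *DUSP1*, *FOSL2*, *NR4A1*, *BTG2*, *FOSB*, *KLF6* and *EGR1*, with log2 ratios from 1.28 to 2.45, and *IER3* was at 195 against 721 rpm.

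Per cell, the inducible group was higher in the whole distribution of NCs and had a long upper tail. Its summed level had a median of 4249 rpm in the 67 NCs of A951 and 3578 rpm in the 236 NCs of A952, against medians of 1703, 1805, 1599 and 1799 rpm in other cells of A951 to A954. The lower quartile of NCs (2511 and 2574 rpm) was close to the upper quartile of other cells in the same tags (2704 and 2990 rpm). The 95th percentile was 23881 and 19630 rpm in NCs of A951 and A952. In other cells it was 6278, 6355 and 6167 rpm in A951, A952 and A953, and 15577 rpm in A954.

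**Figure D3:**
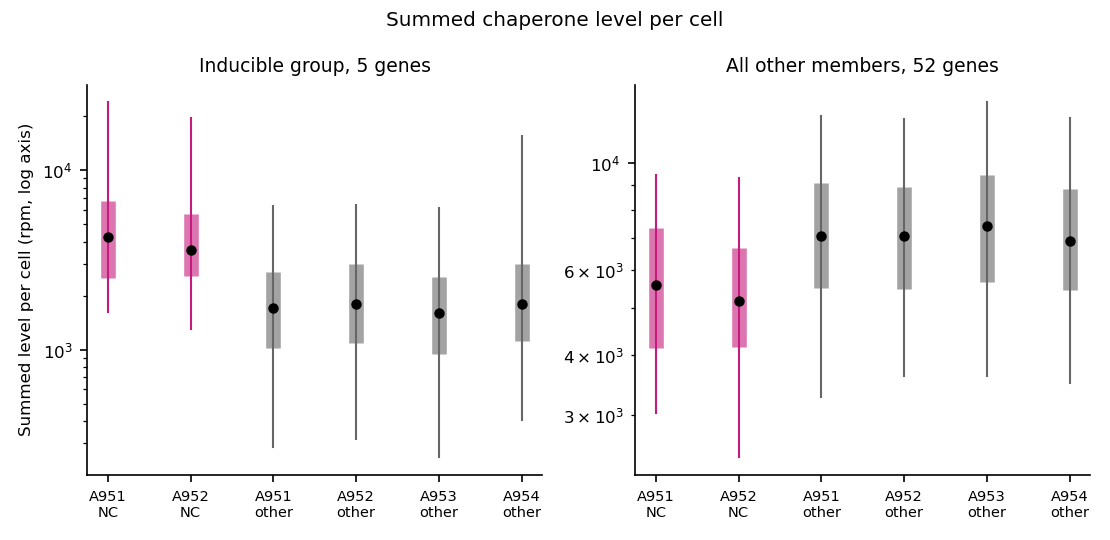
The summed level per cell (rpm, logarithmic y axis) of the inducible group and of the 52 other members is plotted by tag and group (x axis), NC for notochordal cells. Points are medians, thick bars span the quartiles and thin lines the 5th to 95th percentile. The inducible group of NCs is shifted upward in both tags, the summed level of the other members is shifted downward, and among the other cells A954 has the highest 95th percentile of the inducible group (15577 rpm).

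Other cells of A954 stood apart from those of the other tags in the pooled level of 5 members. Their median cell did not stand apart in the summed inducible group, with 1799 rpm against 1703, 1805 and 1599 rpm in A951 to A953. It was higher for *HSPH1* (73.9 against 38.1, 31.5 and 36.0 rpm) and for *DNAJB1* (19.5 against 12.6, 12.1 and 11.7 rpm). For *DNAJA4*, *HSPA4L* and *HSPA1L* the median cell had 0 rpm in every tag. The summed level of the 57 members was even, at 9929, 10006, 10342 and 11035 rpm in other cells of A951 to A954 (log2 range of 0.15, or 0.06 without A954). By contrast, 5 of 48 members were at least 1.5-fold higher in A954 than in each other tag, against 1.00% of all genes tested. These were *HSPH1*, *DNAJB1*, *HSPA1L*, *HSPA4L* and *DNAJA4*. No member was so in A951 (1.12% of all genes) or A953 (2.14%), and 1 was in A952 (2.58%), *DNAJC5B*, at 1.66 rpm.

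*HSPH1* was at 343, 360, 324 and 776 rpm in other cells of A951 to A954, and at 269, 273, 255 and 617 rpm when the 1% of cells of each tag with most *HSPH1* were left out, a step chosen after the values were seen. *DNAJB1* was at 145, 173, 139 and 291 rpm without the 1% of cells of each tag with most *DNAJB1*. Over all other cells, *DNAJA4* was at 34.7, 34.8, 27.8 and 80.3 rpm, and *HSPA4L* at 10.5, 12.8, 11.6 and 23.6 rpm. For these genes A954 was highest and the other tags were close to each other. *HSPA1L*, with shares within the background, was at 3.21, 2.54, 1.49 and 4.89 rpm, with the other tags further apart. The share of cells with an *HSPH1* read was nearer to even, at 85.6, 83.6, 85.6 and 89.0%, or 69.0, 65.8, 70.8 and 72.9% after thinning. The endoplasmic reticulum gene *HSPA5* ran the other way, at 1091, 1054, 1374 and 878 rpm.

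Other cells of A954 were also sequenced most deeply, with a median of 222696 reads against 184588, 175762 and 197492 in A951 to A953, and had a median of 1.46% mitochondrial reads against 1.36, 1.42 and 1.60%. Their chondrocyte markers summed to 35437 rpm, against 45249, 44104 and 33140 rpm in A951 to A953, with *COL2A1* the gene with most reads. The part of depth and cell makeup in the A954 values was not tested. Between NCs and other cells, the 3 mural markers summed to 91.9 against 33.0 rpm, with *ACTA2* at 70.7 against 6.54 rpm, *RGS5* at 8.45 against 3.01 rpm and *PDGFRB*, which ran the other way, at 12.7 against 23.5 rpm, and the 3 osteoblast markers to 3.74 against 49.9 rpm. The 4 immune markers summed to 20.5 against 19.9 rpm. Among them *CD68* was at 9.64 against 17.4 rpm, *LYZ* at 5.21 against 0.714 rpm and *CD3E* at 4.39 against 1.05 rpm, and *PTPRC* had a read in 11.6% of NCs and 10.4% of other cells. The 4 endothelial markers summed to 3.07 against 2.60 rpm, and *ALAS2*, the 1 erythroid gene found, was at 0.0151 against 0.0455 rpm. The part of these markers in the differences between NCs and other cells was not tested.

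The tail of *HSPH1* was held by few cells that were also high in other chaperones. This comparison was chosen after the values were seen. The 53 other cells (1%) with most *HSPH1* had 8642 to 23737 rpm, and held 34.0% of the reads of *HSPH1* in other cells. Of the 53, 37 carried A954, 8 carried A952, 5 carried A953 and 3 carried A951, or 1.72% of the other cells of A954 (1.21 to 2.36%) and 0.323% (0.0667 to 0.942%), 0.900% (0.389 to 1.77%) and 0.364% (0.118 to 0.848%) of those of A951 to A953. The intervals cover counting error only, and since the cells were chosen by *HSPH1* these shares restate its high level in A954.

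When the 53 cells with the highest level in rpm of each gene were taken in turn, *HSP90AA1* shared 27 with *HSPH1*, *DNAJB1* 21, *DNAJA1* 20, *HSP90AB1* 19, *DNAJA4* 15, *DNAJB6* 13, *HSPA4L* 9 and *HSPA1L* 6. These 8 of the 47 other members shared at least 5 cells, against 0.307% of all genes tested, among which the median was 0 cells shared. Pathway genes with at least 5 were *CHORDC1* with 19, *BAG3* with 16, *AHSA1* with 13, *STIP1* with 13 and *FKBP4* with 6, all cochaperones of HSP70 or HSP90. *DNAJB4* shared 4 cells, *JUN* 1 and *FOS* 0.

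**Figure D4:**
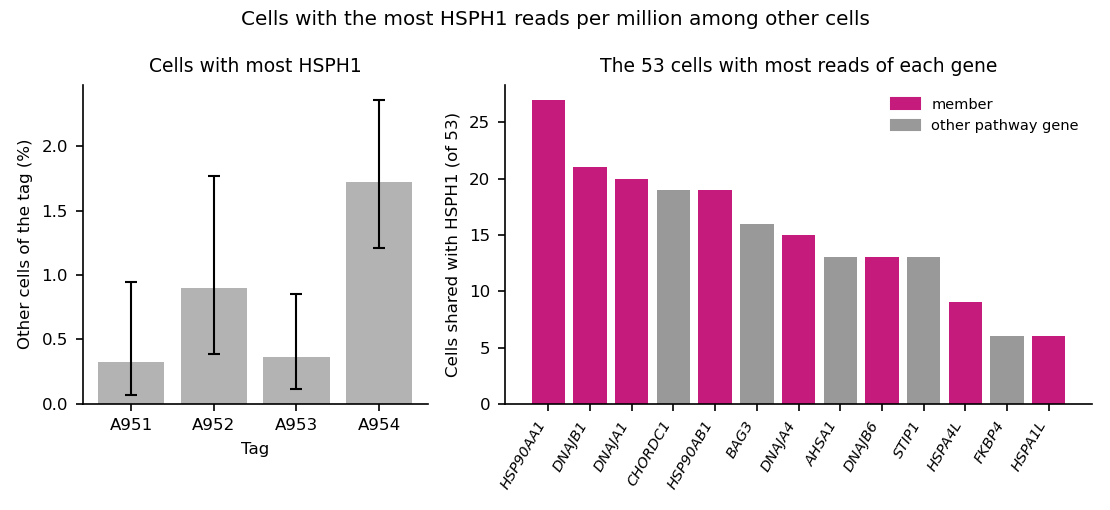
Left, the share of other cells of each tag (y axis, %) that fall among the 53 other cells with most *HSPH1*, with exact 95% intervals for counting error. Right, the number of those 53 cells shared with the 53 cells highest for each of the 13 listed genes that shared at least 5 (y axis, cells), with members in colour and other pathway genes in grey. A954 is at 1.72%, and *HSP90AA1* shares 27 cells.

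Over single cells, most pairs of members were hardly related and a few pairs were. Correlations over cells are descriptions, since cells share 1 library, their total as denominator and their depth. Among 1128 pairs of tested members in the 5343 other cells, the median partial Spearman correlation, given total reads and genes detected, was 0.005, and 30 pairs were over 0.1, against 0.0605% of all pairs of genes tested. The 6 highest pairs were *HSP90AA1* with *DNAJA1* (0.297), with *HSP90AB1* (0.255) and with *HSPH1* (0.251), *HSPH1* with *DNAJA1* (0.247), *HSP90AB1* with *DNAJA1* (0.233) and *HSPA5* with *HSP90B1* (0.219). The first 5 join cytosolic members and the last joins the chief chaperones of the endoplasmic reticulum.

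Outside all lists, the genes most like the summed inducible group in other cells by the same measure were *SQSTM1* (0.273), an autophagy receptor for ubiquitinated cargo, *UBE2S* (0.222), *CLU* (0.194), an extracellular chaperone, *TUBB4B* (0.176), *B2M* (0.167), *HNRNPA2B1* (0.166), *EIF4A1.1* (0.165), *BAZ1A* (0.160), *H2AX* (0.158) and *RBBP6* (0.155). Of these, *SQSTM1* was at 1417 rpm in NCs and 855 rpm in other cells, and *CLU* at 3415 against 9724 rpm.

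The summed level of all members was scarcely related to *JUN* or *FOS* in other cells, with Spearman correlations of 0.053 and 0.030 (n = 5343 cells), or 0.020 and -0.012 without A954. In NCs they were 0.270 with *JUN* and 0.299 with *FOS* (n = 310). The inducible group alone had 0.138 and 0.110 in other cells and 0.254 and 0.337 in NCs, whereas the remaining 52 members had -0.036 and -0.048 in other cells and 0.148 and 0.084 in NCs. Within tags, the correlation of the inducible group with *JUN* was 0.111, 0.122, 0.148 and 0.133 in other cells of A951 to A954, and 0.316 and 0.239 in NCs of A951 and A952. With *FOS* it was between 0.047 (A952) and 0.150 (A954) in other cells, and 0.293 and 0.340 in NCs. All were positive and those of NCs were higher than those of other cells. *JUN* and *FOS* were low in most other cells, with medians of 27.0 and 18.6 rpm, against 809 and 147 rpm in NCs. The part of these low levels in the weaker correlations was not tested. Given reads and genes detected, the correlations of the inducible group over NCs of all tags were 0.242 with *JUN* and 0.341 with *FOS*. Within A951 they were 0.219 and 0.208, where the group had a correlation of 0.377 with reads, and within A952 they were 0.232 and 0.344. For comparison, *JUN* and *FOS* had a correlation with each other of 0.242 in other cells and 0.481 in NCs.

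Single members followed the same split only in part, with some members outside the inducible group above some within it. In other cells, *DNAJB1* had a correlation of 0.210 with *JUN* and 0.204 with *FOS* and was the only member to reach 0.2, against 0.145% of all genes tested for *JUN* and 0.0632% for *FOS*. The next highest with either gene included *HSP90AA1* (0.118 with *JUN*, 0.092 with *FOS*), *DNAJB4* (0.111, 0.103), *HSPH1* (0.095, 0.086), *HSPA1L* (0.093, 0.095) and *DNAJA4* (0.078, 0.089). Among the lowest with either gene were *HSPA9* (-0.064, -0.084), *HSP90B1* (-0.052, -0.041), *DNAJA3* (-0.029, -0.019), *DNAJC2* (-0.024, -0.002), *DNAJC3* (-0.024, -0.023) and *DNAJA2* (0.020, -0.008). The median of the 48 members was 0.029 for *JUN* and 0.025 for *FOS*, and that of all genes tested 0.031 for both.

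In NCs, *DNAJB1* (0.388), *HSPH1* (0.309) and *DNAJA1* (0.260) reached 0.2 with *JUN*, against 0.560% of all genes tested. With *FOS*, *DNAJB4* (0.303), *HSP90AA1* (0.270), *HSPH1* (0.264), *HSPA1L* (0.230) and *DNAJB1* (0.215) did, against 0.922%. *DNAJB1* and *HSPH1* reached this limit with both genes. *HSPA9* had 0.028 with *JUN* and -0.151 with *FOS*.

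**Figure D5:**
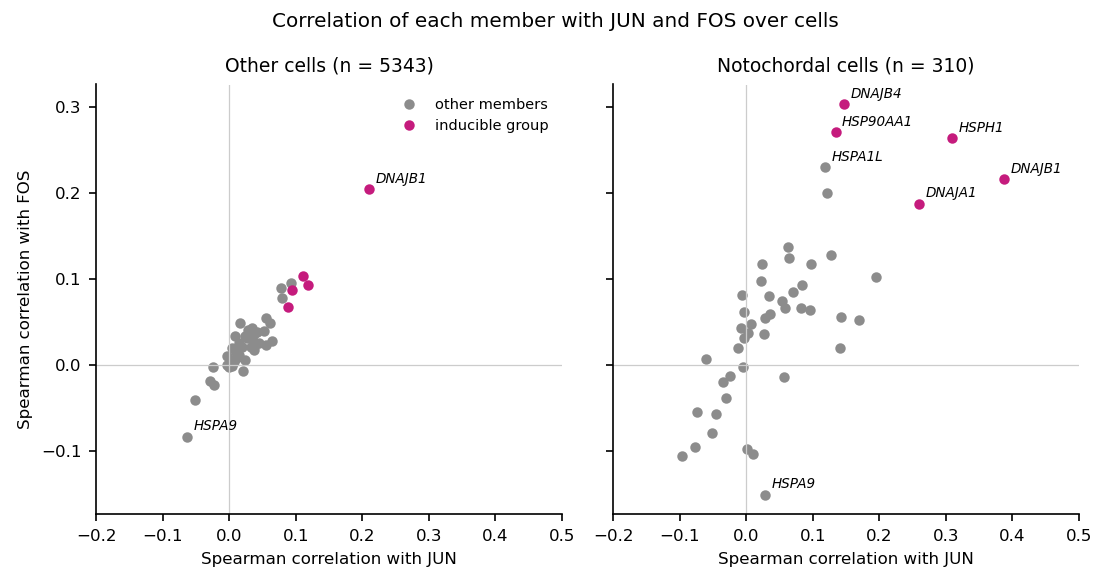
The Spearman correlation over cells of each of the 48 members tested with *JUN* (x axis) and with *FOS* (y axis), in 5343 other cells (left) and 310 NCs (right). The 5 genes of the inducible group are coloured. In other cells only *DNAJB1* is past 0.2, and in NCs all 5 inducible genes lie at 0.13 or more with *JUN* and at 0.187 or more with *FOS*. Other members also lie past these limits, *HSP90AB1*, *HSPA5*, *DNAJB6* and *DNAJA4* with *JUN* and *HSPA1L* and *DNAJC21* with *FOS*.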

How the data were processed

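Cells were barcoded with surface tags, sorted as live cells and sequenced in 1 pooled TAS-seq library on the BD Rhapsody system. Per the submitters' processing notes, the authors mapped reads with HISAT2 (version 2.2.1) and assigned them to genes with featureCounts (version 2.0.2). Reads were counted by strand over whole gene models, introns included, and reads with several matches were kept. The genome build was not given in the sources used here. The deposited matrix holds counts, whole numbers of reads per gene and cell with no molecular identifiers. A second matrix of 1358 cell columns belongs to a library outside the sample labels and was not used, and the tag library holds no gene expression.

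Of 5723 cell columns, 42 were marked as doublets and 7 as untagged by the authors and were left out. Cells with 200 to 9000 genes detected and under 5% mitochondrial reads were kept, 5653 of 5674, with 24907 to 1290096 reads each. No other doublet caller was run. A level is the pooled reads of a group of cells per 1000000 of their reads (rpm), not corrected for gene length. A group under 3 reads was set to 3 reads before a ratio. Genes tested had a read in at least 5% of kept cells. With 1 library, a gene was called where the ratio passed 2-fold (between tags, 1.5-fold above each other tag), and no test was run. Intervals are exact 95% Poisson or Clopper-Pearson intervals. For the 11 tested members above 100 rpm in both groups, the Poisson bounds lay within 2.01% of the level in NCs and 0.526% in other cells. As a check of the computation only, the pooled ratios recovered the sign of 100% of 200 genes changed in simulated data on 11068 genes.

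Per-cell levels were compared with *JUN* and *FOS* by Spearman correlation, and by partial correlation given total reads and genes detected. Shares of cells with a read were repeated on cells thinned to 50000 reads, which left 299 NCs and 5147 other cells. Genes were named by rule: up to 4 members with the highest level in each role, members, pathway, unfolded protein response and immediate early genes past 2-fold, the members most and least correlated with *JUN* and *FOS*, the 6 most correlated pairs, and the 10 genes most like the inducible group. Others named were chosen after their values were seen. The members, roles and gene lists were chosen with earlier results of these data known. Of the 57 members, 55 matched the RefSeq table of assembly T2T-MFA8v1.1, in which 24 overlap another gene record, so that reads of overlapping genes on the same strand are uncertain. Promoter sequences were not analysed here. Analyses used Python 3.11.15 with numpy 2.4.6, scipy 1.17.1, pandas 2.3.3 and matplotlib 3.10.9. The alternatives tried changed the limits on cells, the definition of NCs, depth, averaging, scaling, the filter, the ratio limit, the correlation and each tag left out.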

Additional observations from a re-analysis of the deposited data

How the results depend on the processing

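The log2 ratio of the inducible group between NCs and other cells (1.14) kept its direction under all 14 alternatives, and that of the summed members (0.20) under 12 of 14. Since counting intervals are narrow, most alternatives moved both beyond them. In the order summed members then inducible group, the log2 ratios were -0.065 and 0.87 when centred on the median of all genes tested, -0.01 and 0.92 with the total taken without mitochondrial genes and the 50 genes with most reads, 0.088 and 0.96 with rpm capped at the 99th percentile, 0.083 and 1.20 from means of log2(rpm + 1) over cells, 0.39 and 1.56 as the mean within A951 and A952, 0.17 and 1.01 with NCs taken by either marker, and 0.24 and 1.19 with 20 or more reads of both. The inducible group was at 1.15 with thinned cells and 1.14 without cells of only 1 marker. With each tag left out, they ranged from 0.12 to 0.34 and from 0.98 to 1.45. The sum turned to lower under both changes of scaling, by which the median of all genes also moved, from 0.27 to 0 or 0.05. The sign of 4 of 48 members depended on scaling (*DNAJC3*, *DNAJC7*, *DNAJC13* and *HSPB11*).

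The 10 members at least 2-fold higher became 5 when centred, 6 with the other total, 4 from means of logs and 6 by either marker, and 7 to 11 with each tag left out. The 2 at least 2-fold lower became 5, 5, 5 and 1 in the same order, 6 as the mean within tags, 5 with no filter beyond 3 reads, 11 at 1.5-fold and 2 to 5 with each tag left out. The log2 range of the sum over tags in other cells (0.15) was 0.16 by either marker or without cells of only 1 marker, 0.054 from means of logs, 0.12 with capped rpm, 0.11 with thinned cells, 0.15 with the other total, and 0.059 to 0.15 with each tag left out.

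Correlations were judged against their SD over tags with at least 50 cells of the group. For NCs these were A951 and A952 only, so that their SD is a poor measure of spread. In NCs, the correlation of the summed members with *JUN* (0.270) and *FOS* (0.299) was 0.334 and 0.403 by Pearson correlation of logs, 0.207 and 0.282 by either marker, and 0.148 and 0.084 without the inducible group. With *FOS* it was 0.337 for the inducible group alone and 0.276 in thinned cells. With each tag left out it ranged from 0.261 to 0.333 with *JUN* and from 0.290 to 0.345 with *FOS*. In other cells, the correlation with *JUN* (0.053) was 0.138 for the inducible group alone and -0.036 without it, and that with *FOS* (0.030) was 0.110 and -0.048. With each tag left out it ranged from 0.020 to 0.071 with *JUN* and from -0.012 to 0.045 with *FOS*, the last below 0 without A954. The causes of these changes were not tested. Depth limits members read in few cells. The ratios within A951 and A952 pair NCs with other cells of the same tag, and the labels give no other pairing.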
